A study of Mus musculus with 14 samples.

Results

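Poly(A) sites, the positions at which RNAs with a poly(A) tail end, were examined. The sites sought were those whose transcripts were more abundant in the single-ribosome fraction of a sucrose gradient than in any other. In the deposited table, 16283 RNA 3′ ends had at least 100 counts over a sucrose gradient, and 171 of these met both conditions of the rule. Their largest scaled value was in the fraction named for 1 ribosome per mRNA. Less than 20% of their scaled counts were in the fraction named for 0 ribosomes. The table holds 33590 ends in all. The ends were thus chosen by measured gradient values, and their gradient profiles are given as a description, without a test. They are called monosome-peaking ends here, and the other 16112 ends with at least 100 gradient counts are the ends they are set against.

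The study profiled 3T3 cells, a mouse fibroblast line, to ask how the choice of 3′ end relates to mRNA stability and translation. Its 2P-Seq libraries sequence poly(A)-selected RNA from the start of the tail, so that each read marks 1 RNA end. The libraries used were 1 each after 1, 2, 4 and 8 h of actinomycin D (actD, 10 µg/ml), which blocks transcription, 2 controls, and 6 fractions of a single sucrose gradient. The labels name no genotype or further treatment, and they do not say whether the controls came from separate cultures. A further 2 libraries, made by another assay (3P-Seq), were not analysed here.

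A sucrose gradient sorts mRNAs by the number of ribosomes they carry. An mRNA with 1 ribosome sediments as a monosome and an mRNA with many ribosomes as a polysome, while mRNAs without ribosomes stay with free particles near the top. In growing cells most mRNAs are on polysomes. mRNAs with short reading frames and mRNAs on which ribosomes seldom start are among those known to be found on monosomes. Actinomycin D stops new synthesis, so the level of an mRNA afterwards follows its decay, relative to that of the other mRNAs in the library.

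The 4 actD libraries held 4045420 to 6111232 counts and the controls 5843403 and 6433503. The fractions held 1663346 counts in the lightest and 11575417 in the heaviest. Monosome-peaking ends had a median of 528 raw counts over the gradient, from 100 to 186332, against 664 at the other ends. The gradient was run once, so no profile has a replicate check. The file gives positions in mm9 and no gene names, and no annotation of that build was used here. Ends are therefore named by position, and their genes and sequences are not given. Whether an end belongs to a protein-coding mRNA was not checked.

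Monosome-peaking ends were spread over the light part of the gradient. Each end's counts were divided by the authors' factor for each library and expressed as shares of its sum over the 6 fractions. The median shares of monosome-peaking ends were 10.0% in the ribosome-free fraction, 32.3% in the 1-ribosome fraction and 24.2% in the 2.5-ribosome fraction. In the 3 heavier fractions they were 10.5% at 4.5 ribosomes, 7.31% at 7.5 and 6.86% at 12. The other ends had medians of 3.87%, 6.55%, 18.5%, 17.8%, 17.9% and 25.4% in the same order, with the largest in the heaviest fraction. The authors' deposited mean number of ribosomes per mRNA had a median of 3.14 at monosome-peaking ends, with values of 1.72 to 5.61, against 6.37 at the other ends. An end with its largest share at 1 ribosome could therefore still carry more than 5 ribosomes on average.

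**Figure D1:**
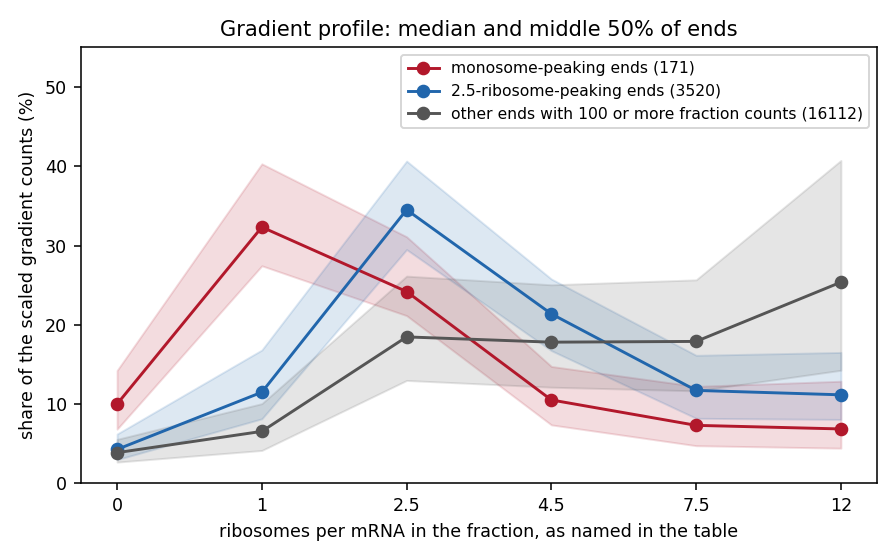
Share of an end's scaled gradient counts (vertical axis, %) in each fraction, named by its ribosomes per mRNA (horizontal axis, categories). Points are medians over ends and bands the middle 50% of ends; monosome-peaking ends (171) have a median of 32.3% at 1 ribosome, ends peaking at 2.5 ribosomes (3520) one of 11.5%, and the other ends (16112, which include those peaking at 2.5) one of 6.55%.

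The peak was narrow in few of them. The next largest share was in the 2.5-ribosome fraction at 149 of 171 ends (87.1%), at 12 ribosomes at 11 ends, at 4.5 and at 7.5 ribosomes at 4 ends each, and in the ribosome-free fraction at 3 ends. The 1-ribosome value was a median of 1.21 times the next largest. It was at most 1.1 times the next at 46 ends and at least 2 times the next at 9 ends. At 11 ends it made up more than 50% of the sum. The shares fell at every step after the 1-ribosome fraction at 60 ends (35.1%).

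Some profiles had a second, smaller rise in the heaviest fraction. The share at 12 ribosomes was above that at 7.5 at 81 of 171 monosome-peaking ends (47.4%), against 9325 of 16112 other ends (57.9%). At 38 monosome-peaking ends (22.2%) it was above the shares at both 4.5 and 7.5 ribosomes, against 7933 of the other ends (49.2%). The profiles chose the ends, so these shares are not tested. Those 38 ends had a median half-life of 3.75 h in the authors' deposited table, against 8.20 h at the 133 monosome-peaking ends without such a rise.

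The limits of the rule ran through continuous values. Just inside the count minimum lay the end at chr11:102264571 (minus strand), with 100 counts, 40.8% at 1 ribosome and a half-life of 17.7 h, and the end at chr13:108985176 (plus strand), with 103 counts, 36.1% and 3.40 h. Just outside it lay chr19:40922935 (plus), with 99 counts, 31.8% and 0.387 h, and chr7:4986042 (minus), with 98 counts, 28.1% and 0.708 h. For the ribosome-free limit, chr10:80645099 (plus) at 19.8% and chr14:25315077 (plus) at 19.7% were inside. The ends at chr7:125252577 (minus) at 20.4% and chr11:68718034 (plus) at 20.7% were outside, with 32.0% and 32.8% at 1 ribosome. In all, 38 ends had their largest value at 1 ribosome but 20% or more in the ribosome-free fraction. Their half-lives had a median of 10.7 h.

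Which ends were chosen depended on the scaling of the fractions. The authors' factors for the fractions ran from 0.496 to 1, a narrower range than that of the library totals. With counts divided by library totals instead, 1112 ends met the same rule, and 73 of the 171 were among them. Of the other 98, the 1-ribosome value was still the largest at 73, with a ribosome-free share at or above the limit, and the ribosome-free value was the largest at 25. The half-lives had a median of 5.41 h at 69 of the 73 ends chosen under both scalings, of 8.64 h at 92 ends chosen under the authors' factors alone, and of 3.02 h at 1031 ends chosen under library totals alone. Among all 1112 ends chosen under library totals, 22.8% of the 1021 tested rose after actD and 26.4% fell in the edgeR test described below, beside 20.8% and 28.2% of all ends tested, so the excess of rises given below for the 171 ends was not seen with that choice. All values below are for the 171 ends chosen with the authors' factors.

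The 6 monosome-peaking ends with the highest control level had shallow profiles, with 25.9% to 29.6% at 1 ribosome. The most abundant, chr14:25315077 (plus), averaged 2593 CPM (counts relative to the library's total) in the controls and had 19.7% in the ribosome-free fraction, 27.8% at 1 ribosome, 22.8% at 2.5, 16.1% at 4.5, 7.54% at 7.5 and 6.15% at 12. Next were chr8:125629139 (plus) with 2222 CPM, chr7:106627399 (minus) with 2143 CPM, chr17:27767362 (minus) with 1633 CPM, chr10:80645241 (plus) with 1603 CPM and chr11:97639333 (minus) with 1513 CPM. Their profiles differed at the heavy end. The end at chr7:106627399 had 18.3% at 7.5 ribosomes, above its 13.7% at 4.5, and the end at chr10:80645241 had 13.4% at 12 ribosomes, above its 7.80% at 4.5 and 5.55% at 7.5.

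The 4 ends with the highest 1-ribosome shares had steep profiles and lower levels. They were chr1:10028400 (plus) and chr14:21873145 (plus), each with 62.4% at 1 ribosome, chr7:16502563 (minus) with 61.8% and chr19:5800534 (minus) with 58.0%. None of them had more than 10.0% in the ribosome-free fraction, and each had 18.6% to 22.6% at 2.5 ribosomes. Their control levels were 10.4, 48.3, 53.0 and 2.04 CPM. The last rests on 130 gradient counts, the other 3 on 639 to 1545. Their deposited half-lives were 19.9 h, 28.1 h and 11.4 h, and chr19:5800534 had none.

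**Figure D2:**
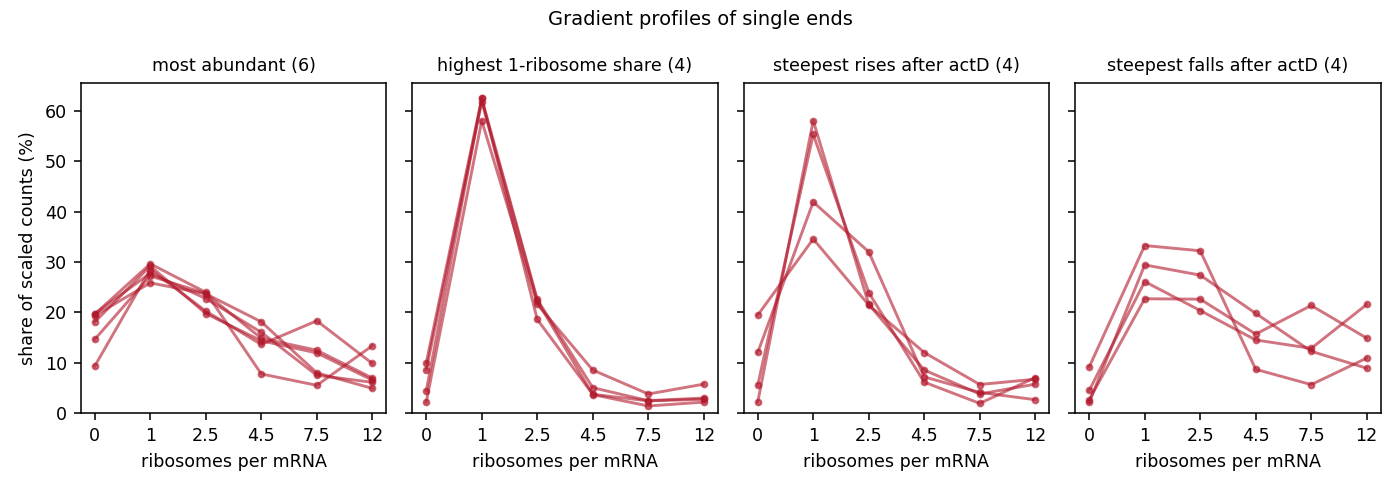
Gradient profiles of single monosome-peaking ends: share of the scaled gradient counts (vertical axis, %) by ribosomes per mRNA of the fraction (horizontal axis, categories), 1 line per end, with no replicate. The 6 most abundant ends have 25.9% to 29.6% at 1 ribosome, the 4 with the highest share 58.0% to 62.4%, and the ends that rose or fell most steeply after actD are in the other panels.

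The level of monosome-peaking ends at steady state was measured in libraries that the rule did not use. Their median control level was 14.7 CPM in control 1 and 16.8 CPM in control 2, against 16.1 and 17.4 CPM at the other ends. Their spread was wider. The middle 50% of the mean of both controls ran from 4.46 to 81.9 CPM at monosome-peaking ends and from 6.14 to 47.2 CPM at the other ends. Together, the 171 ends took 2.45% and 2.56% of the control counts, and 2.79%, 3.29%, 3.77% and 4.60% of the counts after 1, 2, 4 and 8 h of actD. In the gradient they took 9.72% of the counts of the ribosome-free library, 11.8% at 1 ribosome, 4.03% at 2.5, 2.39% at 4.5, 1.85% at 7.5 and 1.15% at 12, a fall along the gradient that the rule itself favours.

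Monosome-peaking ends had longer half-lives than the other ends in the authors' deposited table. The half-life had a median of 7.02 h over 161 monosome-peaking ends, with 3.61 to 11.4 h holding the middle 50%, against a median of 2.90 h over 15942 other ends, with 1.62 to 5.01 h. The unit was not stated and was read as hours. At 103 of 103 monosome-peaking ends with at least 20 counts in each decay library, the rate behind it was 0.1 per h above the rate of an exponential fit to the scaled counts, with a tolerance of 0.001 per h. An end with no fall after the authors' scaling therefore has 6.93 h, and values stop at 50 h. Half-lives of 6.93 h or more were held by 82 of 161 monosome-peaking ends (50.9%, 95% Wilson interval 43.3 to 58.5%), against 2174 of 15942 other ends (13.6%). Half-lives under 2 h were held by 21 monosome-peaking ends (13.04%, interval 8.69 to 19.1%), against 33.0% of the other ends. Half-lives over 12 h were held by 38 (23.6%), against 4.60%. These intervals treat ends as independent, which ends of 1 locus are not, and no test of the lists was made, since the ends were chosen with earlier results known.

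Ends peaking 1 fraction heavier had shorter half-lives. The 3520 ends with their largest value at 2.5 ribosomes and the same limit on the ribosome-free share had a median half-life of 3.16 h. The 100 ends with their largest value in the ribosome-free fraction had one of 8.65 h.

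The 10 monosome-peaking ends with no deposited half-life were not the sparsest. The lowest of them had 168 counts over the 6 decay libraries. All 10 were above both controls at 8 h after the authors' scaling, and for all 10 the fitted rate plus 0.1 per h was at or below 0, where no half-life can be computed. They had a median of 39.3% at 1 ribosome. The median of 7.02 h therefore leaves out ends with some of the largest increases.

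The scaled counts were also followed library by library. Relative to the mean of both controls, the median level of the 160 monosome-peaking ends with at least 60 decay counts was 1.04, 1.11, 1.18 and 1.14 after 1, 2, 4 and 8 h. The medians of the other ends were 0.971, 0.768, 0.575 and 0.358 at the same times, and those of the ends peaking at 2.5 ribosomes 0.968, 0.805, 0.637 and 0.430. The sets of ends richer in ribosome-free RNA had medians above 1 as well. These were 1.17, 1.28, 1.47 and 1.60 at the 36 tested ends that peaked at 1 ribosome with 20% or more ribosome-free, and 1.104, 1.29, 1.46 and 1.33 at the 100 ends that peaked in the ribosome-free fraction. At 8 h the middle 50% of monosome-peaking ends ran from 0.663 to 1.56, and that of the other ends from 0.123 to 0.780. The level was above both controls at 70, 80, 82 and 77 of 160 monosome-peaking ends at 1, 2, 4 and 8 h. At 8 h this was 48.1% of monosome-peaking ends, against 12.6% of the other ends. It was 75% (27 of 36) at the ends excluded by the ribosome-free limit and 59.0% at the ends with a ribosome-free peak.

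**Figure D3:**
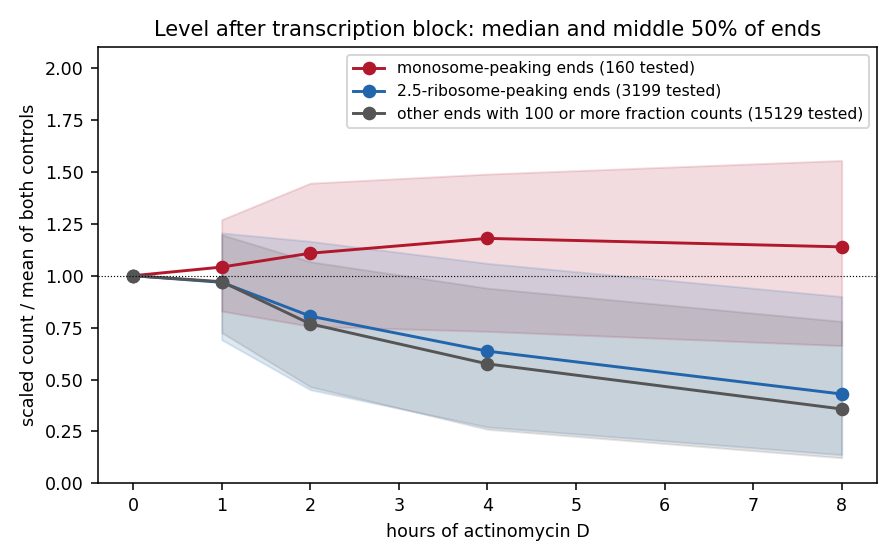
Scaled count relative to the mean of both controls (vertical axis) against hours of actinomycin D (horizontal axis, controls at 0, 1 library per later time). Points are medians over ends with at least 60 decay counts and bands the middle 50% of ends; at 8 h the median is 1.14 for monosome-peaking ends, 0.430 for ends peaking at 2.5 ribosomes and 0.358 for the other ends.

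Each end was tested for a straight-line slope of its log2 level on hours with edgeR's quasi-likelihood test, with trimmed-mean (TMM) scaling and Benjamini-Hochberg adjustment over all 16913 ends tested. Of the 160 monosome-peaking ends tested, 98 rose relative to the other ends of the libraries (61.3%), beside 20.8% of all ends tested. By the same test 14 fell (8.75%), beside 28.2% of all ends, and 48 were not called. The median slope of monosome-peaking ends was 0.18 log2 per h, with 0.07 to 0.23 holding the middle 50%, against -0.03 over all ends tested. Rises were as frequent or more so at ends richer in ribosome-free RNA. They were called at 33 of 36 ends (91.7%) excluded by the ribosome-free limit and at 63 of 100 with a ribosome-free peak. Of the 3199 tested ends peaking at 2.5 ribosomes, 785 rose (24.5%) and 26.0% fell. Since each time had 1 library, the p-values measure the spread of these 6 libraries around a line, which may be technical.

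The number of calls depended on the scaling. With the authors' factors in place of TMM, the median slope of all ends tested was -0.18 log2 per h, and that of monosome-peaking ends was 0.024. The shift between the scalings is thus nearly as large as the median slope of monosome-peaking ends with TMM. With these factors 26 monosome-peaking ends rose (16.3%), beside 2.71% of all ends, and 28 fell (17.5%), beside 52.7%. Rises made up 87.5% of the calls with TMM and 48.1% with the authors' factors. All 26 rises and all 14 of the falls called with TMM were shared between the scalings. DESeq2 called 100 rises, beside 21.2% of all ends, and 11 falls, beside 26.4%. Of the 98 rises, 73 were still called without the 8 h library and 66 when each library was left out in turn. Of the 14 falls, 8 were still called without control 1 and 8 without control 2, and 6 each time.

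The 6 most abundant monosome-peaking ends all rose with TMM scaling. The scaled counts of chr14:25315077 (plus) were 13173 and 19856 in the controls and 23502, 26153, 31296 and 41269 after 1, 2, 4 and 8 h. Each actD library was above both controls. Its slope was 0.31 ± 0.036 log2 per h (SE, adjusted p from edgeR 6.55e-05), and it was 0.16 with the authors' factors (adjusted p from edgeR 0.00145). The end at chr8:125629139 (plus) had 13240 and 15012 in the controls and 16632, 17470, 15680 and 17036 after actD. These also lay above both controls, but by less, and its slope of 0.18 ± 0.030 (adjusted p from edgeR 0.000573) was 0.02 with the authors' factors (adjusted p 0.469 from edgeR). The slopes of chr7:106627399, chr17:27767362, chr10:80645241 and chr11:97639333 were 0.20 to 0.25 with TMM. With the authors' factors, chr17:27767362 and chr11:97639333 were still called, with adjusted p from edgeR of 0.0434 and 0.0159, and the other two were not. Half-lives of the 6 ends were 8.28 h to the limit of 50 h.

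Abundant ends were more stable in both lists, and the lists were therefore set side by side at like levels. Below 10 CPM in the controls, the median half-life was 5.71 h at 66 monosome-peaking ends and 2.71 h at 5840 other ends. Between 10 and 100 CPM it was 7.29 h at 60 monosome-peaking ends and 2.75 h at 8189 others. Between 100 and 1000 CPM it was 8.63 h at 27 monosome-peaking ends and 4.56 h at 1828 others, and from 1000 CPM up it was 12.1 h at 8 and 7.42 h at 85. Monosome-peaking ends had the longer median at each of these 4 levels. With TMM, 22 of 61 tested (36.1%), 45 of 63 (71.4%), 23 of 28 (82.1%) and 8 of 8 monosome-peaking ends rose from the lowest level to the highest, against 11.5%, 19.2%, 46.8% and 81.2% of the other ends.

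**Figure D4:**
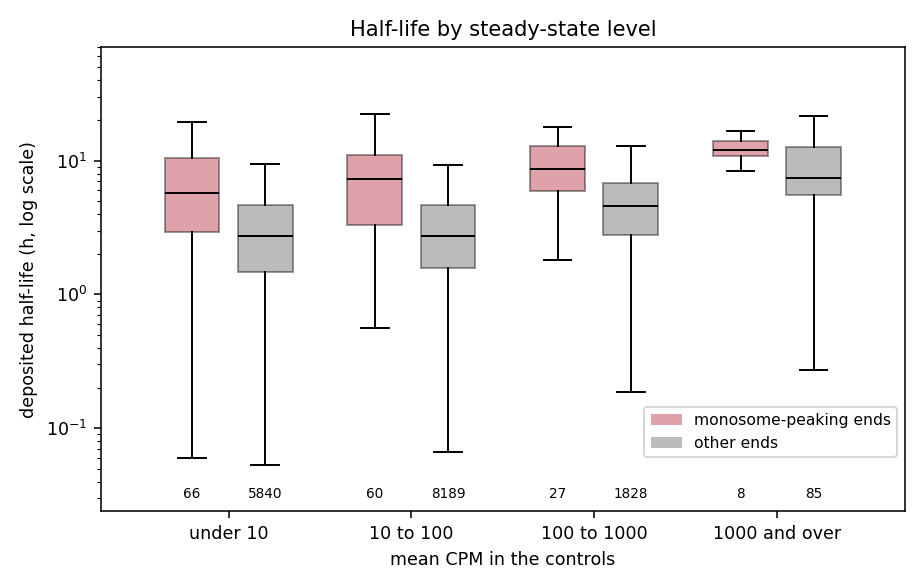
Deposited half-life (vertical axis, hours, log scale) by mean control level (horizontal axis, CPM) for monosome-peaking ends, left in each pair, and the other ends with at least 100 gradient counts, right. Boxes show the median and the middle 50% of ends, whiskers reach the farthest end within 1.5 box lengths, ends beyond are not drawn, and the numbers of ends are printed below; medians are 5.71, 7.29, 8.63 and 12.1 h against 2.71, 2.75, 4.56 and 7.42 h.

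Among monosome-peaking ends, those with more ribosome-free RNA had the longer half-lives. The 24 ends with a ribosome-free share under 5% had a median half-life of 3.03 h, and 7 of the 21 tested fell (33.3%) and 5 rose (23.8%), close to the 32.1% and 19.9% of the other ends in that range. The 61 ends with 5 to 10% had one of 6.05 h and the 50 ends with 10 to 15% one of 6.72 h. The 36 ends with 15 to 20%, next to the limit of the rule, had one of 9.67 h, and 34 of the 34 tested rose with TMM, against 42.7% of the other ends in that range. Control levels moved with these groups, with a median of 5.68 CPM under 5% and of 97.9 CPM at 15 to 20%, and their part in the difference was not tested. The other ends had medians of 2.83, 2.89, 3.80 and 4.61 h in the same 4 ranges. With the authors' factors, 11 of the 34 ends at 15 to 20% rose and none fell, against 9 and 22 of the 89 other ends tested in that range.

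The 1-ribosome share gave no such order within the list. The 21 ends with under 25% at 1 ribosome had a median half-life of 3.97 h, the 47 with a half-life among those at 25 to 30% one of 8.11 h, the 53 at 30 to 40% one of 6.67 h and the 40 at 40% or more one of 8.04 h. Of the 42 tested ends with 40% or more, 30 rose and 0 fell with TMM, beside 20.8% and 28.2% of all ends tested. With the authors' factors 10 rose and 2 fell, beside 2.71% and 52.7%. Across the ends that were not monosome-peaking, the median half-life was 2.83 h below 5% at 1 ribosome, 2.79 h at 5 to 10%, 2.92 h at 10 to 20%, 4.81 h at 20 to 30% and 7.69 h at 30% or more. The last group held 117 ends with a half-life, and 83 of its 123 ends tested rose with TMM (67.5%). Long half-lives therefore also belonged to ends with much RNA on monosomes that peaked in another fraction or exceeded the ribosome-free limit.

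**Figure D5:**
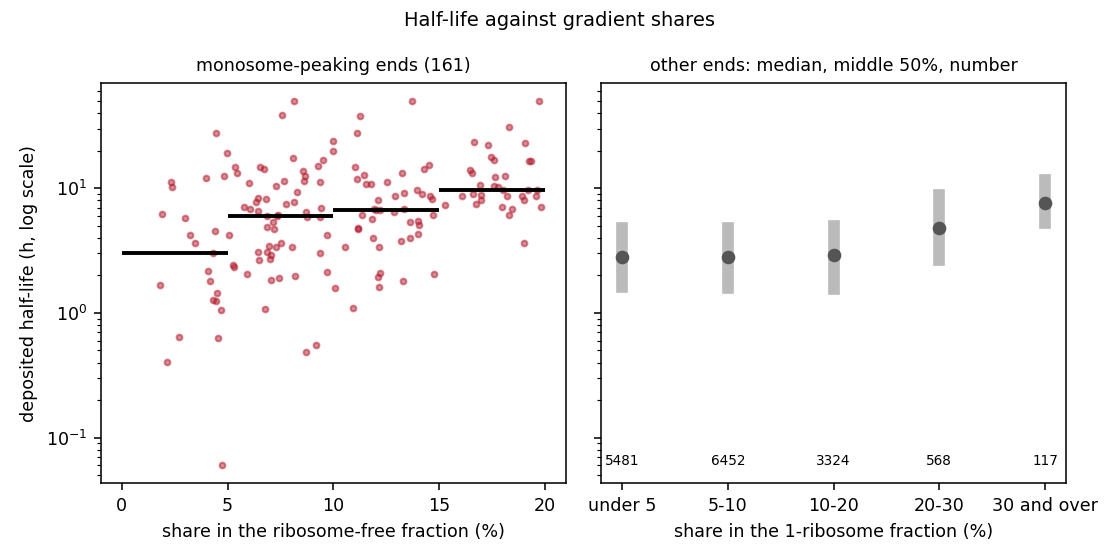
Left, deposited half-life (vertical axis, hours, log scale) of each of 161 monosome-peaking ends against its ribosome-free share (horizontal axis, %), with the median of each range as a line: 3.03, 6.05, 6.72 and 9.67 h. Right, the median (point) and middle 50% (bar) of the other ends by their 1-ribosome share, with the number of ends below: 2.83, 2.79, 2.92, 4.81 and 7.69 h.

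The short-lived monosome-peaking ends had flatter profiles. The 21 ends with a half-life under 2 h had median shares of 6.78% in the ribosome-free fraction, 27.3% at 1 ribosome, 22.6% at 2.5, 13.4% at 4.5, 13.5% at 7.5 and 14.9% at 12. The 82 ends with 6.93 h or more had 12.7%, 30.9%, 24.1%, 10.3%, 7.10% and 6.14% in the same order. Of the 17 short-lived ends tested, 13 fell and 0 rose, and of 81 long-lived ends tested, 73 rose and 0 fell with TMM. These calls and the half-lives come from the same libraries.

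The 4 steepest falls were at ends of low to moderate level. At chr2:49406683 (plus) the scaled counts were 30.1 and 41 in the controls and 11.9, 6.34, 1.13 and 1.26 after 1, 2, 4 and 8 h. All 4 actD libraries lay below both controls, with a slope of -0.72 ± 0.17 log2 per h (adjusted p from edgeR 0.00456); without control 2 the end had too few counts to be tested. At chr11:17840083 (minus) they were 25.8 and 48 in the controls and 6.51, 3.17, 5.66 and 1.26 after actD, with a slope of -0.53 ± 0.18 (adjusted p from edgeR 0.0256). That call was lost without control 1 (0.0574), without the 8 h library (0.0589) and with DESeq2 (0.0674), all as adjusted p. Without control 2 this end, too, had too few counts to be tested. At chr6:83030847 (plus) they were 92.3 and 133 in the controls and 35.8, 17.97, 23.8 and 5.06 after actD, with a slope of -0.40 ± 0.10 (adjusted p from edgeR 0.00668).

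The most abundant of these 4 ends, chr3:65750075 (minus), had 435 and 643 in the controls and 157, 67.7, 46.4 and 32.9 after actD. The first hour held the largest step. Its slope was -0.39 ± 0.12 (adjusted p from edgeR 0.0415), and the call was lost without control 1 (0.0673) and without the 4 h library (0.0751). Its 1-ribosome share of 33.3% was close to the 32.2% at 2.5 ribosomes. The half-lives of the 4 ends were 0.405 to 0.643 h.

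The 4 steepest rises were at ends whose scaled counts increased several-fold, with no deposited half-life. At chr19:5795999 (minus), where 55.3% of the gradient counts were at 1 ribosome, the scaled counts were 175 and 102 in the controls and 138, 552, 1523 and 2684 after 1, 2, 4 and 8 h. The 1 h library lay between the controls and the later ones above both. The slope was 0.75 ± 0.12 log2 per h (adjusted p from edgeR 0.00526). At chrX:163645893 (minus) the values were 90.2 and 25 in the controls and 20.6, 154, 340 and 941 after actD, with a slope of 0.70 ± 0.13 (adjusted p from edgeR 0.00929). The controls differed more than 3-fold there, and the call was lost without the 8 h library (adjusted p 0.0626 from edgeR). This end held 0.024% of the gradient counts of its locus, 144 against 590508 at chrX:163645025, 868 nt away. That neighbour had 7801 CPM in the controls and a slope of 0.25.

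At chr10:128061617 (minus) the values were 1269 and 781 in the controls and 705, 2121, 3508 and 6996 after actD. The 1 h library was below both controls and the later ones above both, with a slope of 0.53 ± 0.065 (adjusted p from edgeR 0.000413). At chr19:5800534 (minus), one of the ends with the highest 1-ribosome share, they were 13.96 and 12 in the controls and 15.2, 34.9, 43.0 and 79.6 after actD. All 4 actD libraries were above both controls, with a slope of 0.47 ± 0.066 (adjusted p from edgeR 0.000172). The ends at chr19:5800534 and chr19:5795999 lie on the same strand, with the monosome-peaking end chr19:5798394 (minus, half-life 3.36 h) between them. The joining rule described below places these ends in separate but neighbouring loci. Whether they belong to the same transcript was not tested, so the rises at chr19:5795999 and chr19:5800534 may not be independent. All 4 rises were also called with the authors' factors, at slopes of 0.32 to 0.60 and adjusted p from edgeR of 0.000276 to 0.00704.

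The lists gave similar shares for locus structure. A locus here joins ends of 1 strand, each within 2000 nt of the next. It can hold more than 1 gene, or only part of 1 gene. An end was the only one of its locus at 50 of 171 monosome-peaking ends (29.2%, 95% Wilson interval 22.9 to 36.5%), against 24.7% of the other ends. Loci of 4 or more ends held 26.3% of monosome-peaking ends (20.3 to 33.4%), against 33.6% of the others. The second value lay just above the interval, which treats ends as independent. Within loci of several ends, the rank of an end was taken from its raw gradient counts, which the rule used. By this rank, 65 of 121 monosome-peaking ends in such loci were the most abundant end (53.7%), against 50.4%. They were the proximal end, nearest the gene's start, at 37 (30.6%), a middle end at 39 (32.2%) and the distal end at 45 (37.2%), against 28.3%, 35.2% and 36.5%. These shares of the other ends by position lay inside the intervals of the monosome-peaking ends.

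Half-lives were long in both arrangements. Monosome-peaking ends that were the only end of their locus had a median half-life of 8.47 h and those in loci of several ends 6.67 h, against 2.90 h for the other ends in both cases. Among the 45 monosome-peaking ends with at least 40% at 1 ribosome, 21 were the only end of their locus (46.7%). That figure was 38.1% below 25% at 1 ribosome, 16.3% at 25 to 30% and 23.2% at 30 to 40%. Among the 127 other ends with 30% or more at 1 ribosome it was 36.2%. An end on the opposite strand lay within 1000 nt at 19 monosome-peaking ends (11.1%), against 10.2% of the others. The nearest end on the same strand and in the same locus was a median of 142 nt away, against 134 nt.

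The 171 ends lay in 145 loci. Of these, 122 held 1 monosome-peaking end, 20 held 2 and 3 held 3, so that 49 ends shared a locus with another. In the 23 shared loci the monosome-peaking ends spanned a median of 142 nt, from 22 to 1385 nt, and 10 of the loci spanned less than 100 nt. Their 1-ribosome shares differed within a locus by a median of 3.25 percentage points and by at most 8.13.

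Most neighbouring ends peaked at 2.5 ribosomes. In 63 of the 145 loci more than 1 end had at least 100 gradient counts, and in 14 of these every such end was monosome-peaking. The 82 other ends with that many counts in these loci peaked at 2.5 ribosomes in 58 cases, at 1 ribosome with a ribosome-free share at or above the limit in 10, at 12 ribosomes in 7, at 7.5 in 4, in the ribosome-free fraction in 2 and at 4.5 in 1. Their median 1-ribosome share was 24.96%, below the 32.3% of monosome-peaking ends and above the 6.55% of the other ends in general. They carried a median of 3.26 ribosomes per mRNA, and their half-life had a median of 4.87 h.

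Ends of 1 locus were compared within libraries, so that the scaling between libraries drops out. Each end was set against the end of its locus with the most counts over the 6 decay libraries, and the interaction of end and hours was tested with edgeR over 6385 pairs, of which 3.65% were called in either direction. Of the 47 pairs of a monosome-peaking end with an end that was not, the monosome-peaking end was lost faster in 0 and more slowly in 1. At an unadjusted p under 0.05 these counts were 3 and 7, and with DESeq2 2 and 5. Over all pairs, edgeR called the less abundant end lost faster in 1.53% and more slowly in 2.11%, and DESeq2 in 2.91% and 5.14% (8.05% in either direction). In 22 of the 47 pairs the monosome-peaking end was the more abundant one and was read against the second end of its locus. The shares by direction over all pairs therefore do not match those counts, and only the shares in either direction compare. The difference of slopes had a median of 0.03 log2 per h, with -0.04 to 0.13 holding the middle 50%, and its SE a median of 0.072. At this SE a difference of the size of the median could not be shown in a single pair.

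In the pairs, monosome-peaking ends had the longer median half-life, by less than in the lists, and the difference was not tested. In the 41 pairs with both values, the median was 7.03 h at monosome-peaking ends and 5.35 h at their partners. The monosome-peaking end had the longer value in 25 pairs. It was at least 2 times the partner's in 7 pairs and at most 1/2 of it in 3. Of the 42 partners with at least 100 gradient counts, 27 peaked at 2.5 ribosomes, 6 at 1, 6 at 12, 2 at 7.5 and 1 in the ribosome-free fraction. The median 1-ribosome share was 30.8% at monosome-peaking ends and 25% at these partners. The shares were within 10 percentage points in 31 of these pairs.

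The 1 called pair of this kind was chr19:5795999 (minus) with chr19:5795690, 309 nt further in the direction of transcription. The monosome-peaking end made up 27.2% of the counts of the pair in control 1 (95% Wilson interval 23.8 to 30.9%) and 9.69% in control 2 (8.04 to 11.6%). It made up 62.3%, 89.5%, 98.8% and 98.9% after 1, 2, 4 and 8 h. Every actD library was far above both controls, which themselves differed beyond their intervals. The difference of slopes was 1.23 ± 0.24 log2 per h (adjusted p from edgeR 0.0371; 0.00120 with DESeq2). The call was kept without the 8 h library (0.0377) and lost without any other, at adjusted p of 0.0514 to 0.0823. The partner peaked in the ribosome-free fraction, on 69 gradient counts, and had a half-life of 0.333 h. Its scaled counts were 469 and 951 in the controls and 83.5, 64.5, 18.1 and 30.3 after actD.

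Of 21 pairs of 2 monosome-peaking ends, 1 was called with edgeR. At chr10:128061585 and chr10:128061617, 32 nt apart on the minus strand, the end at chr10:128061585 made up 59.9% and 69.5% of the pair in the controls and 74.97%, 51.98%, 45.6% and 28.8% after 1, 2, 4 and 8 h. The difference of slopes was -0.30 ± 0.059 log2 per h (adjusted p from edgeR 0.0354; 0.000758 with DESeq2). The call was lost without control 2 (0.0921), the 2 h (0.0528), the 4 h (0.0752) and the 8 h library (0.297). The raw counts of both ends were above both controls at 2, 4 and 8 h, with 1765 and 1777 in the controls and 2171, 2599 and 2243 at chr10:128061585. Besides this pair, DESeq2 called chr9:71326305 with chr9:71326268 (adjusted p 0.0242), chr9:64026322 with chr9:64026256 (0.0263) and chr7:106627429 with chr7:106627399 (0.0445). Over all pairs DESeq2 called 8.05%.

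The next pairs by p were not called with edgeR. At chr7:52380934 (minus) the monosome-peaking end made up 73.7% and 72.6% of its pair with chr7:52381287 in the controls and 74.8%, 71.1%, 65.5% and 59.0% after actD. The last 3 were below both controls, with a difference of slopes of -0.13 ± 0.029 (adjusted p from edgeR 0.0517; 0.0264 with DESeq2). The partner, whose largest value was also at 1 ribosome, had a half-life of 25.5 h, against 6.15 h at the monosome-peaking end. At chr13:55236417 (plus) the share of the pair with chr13:55236185 was 9.88% and 14.8% in the controls and 14.7%, 14.5%, 21.9% and 56.3% after actD, the last on 16 counts (0.36 ± 0.083, adjusted p from edgeR 0.0530; 0.0183 with DESeq2).

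In 4 further pairs, picked after their values were seen, the 1-ribosome share of the partner was lower by more than 20 percentage points. None of the 4 was called with edgeR, at adjusted p of 0.0769 to 0.435, and the pair at chr4:129295343 was called with DESeq2 (adjusted p 0.0400). The end at chr1:162968667 had 49.5% at 1 ribosome and its partner at chr1:162967572 had 1.38%, with its largest value in the ribosome-free fraction on 51 gradient counts. Their half-lives were 10.7 h and 4.02 h. The end at chr4:129295343 had 37.2% at 1 ribosome and a half-life of 10.2 h, and its partner at chr4:129292866 had 11.7% at 1 ribosome, a peak at 12 ribosomes and a half-life of 0.609 h. The end at chr19:8847018 had 38.0%, and its partner at chr19:8848983 had 5.77% and a peak at 12 ribosomes, with half-lives of 4.23 h and 3.01 h. The end at chr18:35834683 had 34.8% and its partner at chr18:35830760 had 14.1%, with half-lives of 4.69 h and 3.07 h. Joining ends within 2000 nt can place ends of different genes in 1 locus, and these partners lie 1095 nt or more away.

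Chromosome 7 held more monosome-peaking ends than any other chromosome. There were 27 in 21 loci, 15.8% of the list, while the chromosome held 6.12% of all ends with at least 100 gradient counts. Of its ends with that many counts, 2.71% were monosome-peaking. Chromosome 9 held 15, chromosome 11 held 13 and chromosome 10 held 11, and chromosome 16 held 1 of 566. The loci on chromosome 7 were not a single cluster, since 1 of them lay within 100000 nt of the one before, and 12 of the ends were on the plus strand and 15 on the minus strand. Their half-life had a median of 7.91 h, against 6.83 h for monosome-peaking ends elsewhere, and their control level one of 32.0 CPM, against 13.05 CPM. The chromosome was picked after the counts were seen, and the excess was not tested.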

How the data were processed

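The authors' deposited table gives raw read counts at poly(A) sites for the controls, the actD times and the gradient fractions, with positions in mm9, per the file headers. The headers also give the factor by which the authors divided each library. Reads were aligned with Bowtie, per the submitters' processing notes; no version of it is given in the sources used here. The deposited half-life and ribosomes per mRNA are the authors' values. Ribosomes per mRNA was recomputed as the mean of the fraction names weighted by scaled counts, at 30164 of 30164 sites within 1e-06. Fraction columns are named by ribosomes per mRNA, the labels by fraction number, and no match was assumed. Per-sample columns left unused numbered 0.

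Counts were tested with edgeR 4.0.16 (glmQLFit, robust; TMM; Benjamini-Hochberg, called under 0.05) for a slope on hours at sites with at least 60 counts over the 6 decay libraries, and for the interaction of end and hours in pairs. DESeq2 1.42.0 was an alternative. Of the 171 monosome-peaking ends, 160 were tested and 160 pass the authors' filter. Intervals are 95% Wilson intervals and cover counting error only, since PCR reads without molecular identifiers are not independent molecules. A value relative to the controls, and a scaled count, uses the authors' factors.

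The ends named are the 6 most abundant in the controls, the 4 with the highest 1-ribosome share, the 4 steepest called falls and rises, the 4 pairs with the smallest p among all pairs that hold a monosome-peaking end (pairs of 2 such ends included), and the 2 ends on each side of each limit of the rule. Another 4 pairs were chosen after their values were seen. The monosome-peaking ends and the lists were chosen with earlier results of these data known. The gene lists written for this comparison could not be used without names.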

Additional observations from a re-analysis of the deposited data

How the results depend on the processing

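The number of monosome-peaking ends was 130 with a minimum of 200 gradient counts, 85 with a ribosome-free limit of 0.1, 92 with a 1-ribosome value at least 1.2 times every other, and 1112 with fractions divided by library totals. With the limit of 0.1, 36 of 77 tested rose after actD (46.8%). Under the 1.2-fold rule 59 of 87 rose (67.8%) and 6 fell (6.90%). Under library totals 233 of 1021 rose (22.8%) and 270 fell (26.4%), close to the 20.8% and 28.2% of all ends tested. With the authors' factors 26 rose and 28 fell. With a minimum of 200 decay counts 9 of 117 tested fell, beside 14 of 160 in the main fit. Leaving out 1 library gave 77 to 99 rises and 8 to 14 falls among 154 to 158 ends tested, with 9 falls without control 1 and 8 without control 2. The shares of all ends called in these fits and with the minimum of 200 are not given. Pairs with the monosome-peaking end lost faster numbered 2 of 47 with DESeq2 and 1 of 24 with a minimum of 200 counts. They numbered 1 of 59 when ends within 5000 nt were joined, and 0 without any 1 library. Pairs with it lost more slowly numbered 5 of 47 with DESeq2 and 0 of 32 with ends joined within 500 nt (6 at an unadjusted p under 0.05). They numbered 6 of 59 within 5000 nt, and 0 to 1 without any 1 library. The shares called over all pairs at 500 and 5000 nt are not given, so these counts have no background beside them. The median half-life was 5.78 h with the ribosome-free limit of 0.1 and 3.11 h under library totals. The median control level was 14.7 CPM in control 1 alone, 32.7 CPM with 200 gradient counts, 10.4 CPM with the limit of 0.1, 13.3 CPM under library totals and 14.1 CPM under the 1.2-fold rule. The share of ends alone in their locus was 45.0% with ends joined within 500 nt (other ends 42.3%) and 21.6% within 5000 nt (other ends 18.4%). The median slope was 0.024 log2 per h with the authors' factors, 0.16 to 0.25 without any 1 library (0.25 without the 8 h library), and -0.011 for the ends chosen under library totals, the reverse of the 0.18 reported. The cause was not tested in any of these cases. No paired analysis was possible because each time after actD had 1 library and the gradient was run once. The 1 gradient and its counts, from 100 per end up, limit how finely the largest fraction can be told from the next.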
